A study of Rattus norvegicus with 18 samples.

Results

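The lungs of control rats at Year 2 were compared with those of control rats at Year 1, to describe how the lung transcriptome of vehicle-treated animals differed between the last 2 time points of a 2-year carcinogenicity study. The comparison used 6 of the 18 rats of the series, 3 at Year 1 and 3 at Year 2, and covered all genes. All were male F344 (F344/DuCrlCrlj) rats that received saline with Tween 80 by intratracheal instillation at 9 weeks of age and every 4 weeks thereafter, so they were 61 and 113 weeks old. RNA was extracted from pieces of the accessory lobe, and tissue with visible tumor nodules had been excluded. Each rat was a separate animal. The other rats used for reference were the 3 control rats at Year 0.5 and the MWCNT-treated rats at Years 1 and 2 (3 each), which received MWNT-7, a multi-walled carbon nanotube, by the same route and schedule.

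The aging lung of rodents is known for a slow gain of lymphoid cells and immune gene expression, and for changes in the extracellular matrix. Alveolar type 2 (AT2) cells make surfactant and carry a heavy load of protein folding in the endoplasmic reticulum (ER). Basement membranes, built from laminins, type IV collagen and nidogens, separate the alveolar epithelium from the capillaries. In whole-lung RNA, fewer cells of a type and less RNA per cell cannot be told apart.

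Total counts ranged from 13297643 to 17868851 per rat, and TMM factors (trimmed mean of M-values, a scaling for library composition) from 0.987 to 1.02. The markers of lung epithelium were high in all 6 rats, and *Sftpc* (surfactant protein C) lay between 17721 and 23609 TPM, a level scaled for transcript length and library size. The separation of the years was uneven. On the first principal component, which held 42.1% of the variance, the Year 1 rats scored -19.9, -96.3 and -67.0 and the Year 2 rats 95.7, 81.6 and 5.91. Rat 1 of Year 1 and rat 3 of Year 2 thus lay next to each other between the other 4 rats, and the counts of genes given here depended on both. The library of rat 1 of Year 2 has a name suffix that no other library of the series has, and the Year 2 libraries are numbered apart from those of the earlier years, so the time point and anything handled with it cannot be told apart.

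Of 14250 genes tested, 19 were DEGs (0.133%), differentially expressed genes with a false discovery rate (FDR, edgeR quasi-likelihood test) under 0.05 and more than a 2-fold difference. At Year 2, 12 of them were higher and 7 lower. Without a limit on the fold, 131 genes had an FDR below 0.05, of which 40 were higher (0.281% of those tested) and 91 lower (0.639%). The higher genes included *Gzmbl1*, *Gzmbl2* and *Gzmbl3*, which are granzyme B-like, and *Cst7*. The lower genes included the chaperone gene *Hspa5*, the laminin gene *Lamb1*, the AT2 gene *Lamp3* and the complement gene *C3*. The changes were mostly moderate, with a median log2 fold change of 0.80 among the higher genes and -0.58 among the lower ones, against 0.01 over all genes tested. The balance of the counts depended on the scaling. With library size alone, 42 genes were higher and 48 lower, while each of the 131 had the same sign.

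The counts were sensitive to single rats. Without rat 2 or rat 3 of Year 1, 1 gene had an FDR below 0.05, and without rat 1 or rat 2 of Year 2, none did by edgeR, although 2450 and 2379 genes had an unadjusted p below 0.05. Without rat 1 of Year 1 there were 759 genes, and without rat 3 of Year 2 there were 1104. One model of all 9 control rats gave 520 genes and 43 DEGs, and one model of all 18 rats gave 1177 genes and 74 DEGs. The bars of genes called by model show these counts beside each other.

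**Figure D1:**
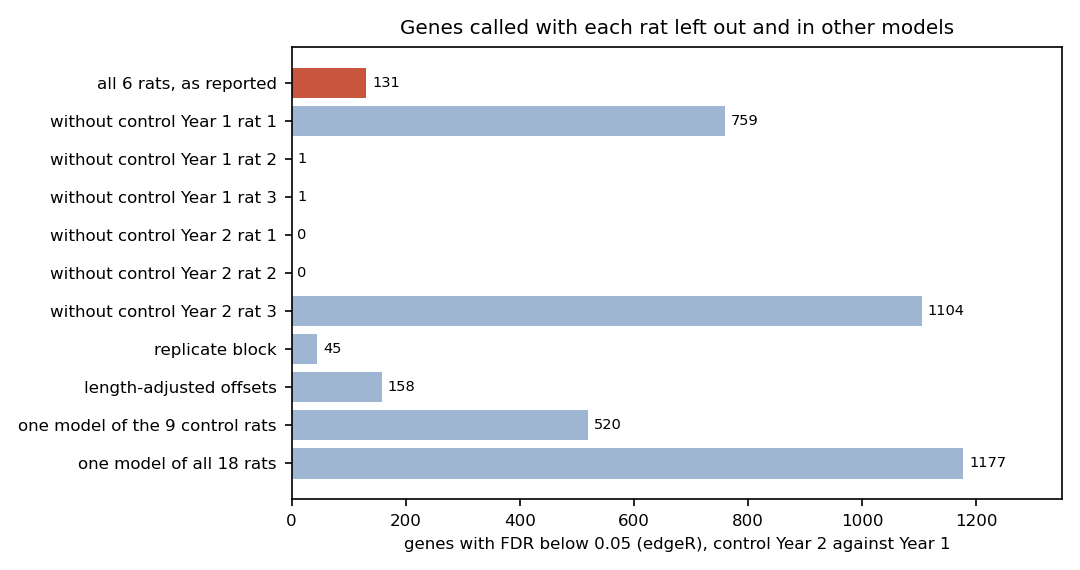
Number of genes with an FDR below 0.05 (edgeR quasi-likelihood test, horizontal axis) for control Year 2 against Year 1, with all 6 rats, with each rat left out, with the replicate number as a block, with an adjustment for transcript length, and in models with more rats. The count was 131 with all 6 rats and ran from 0 to 1104 with 1 rat left out.

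Of the 12 DEGs that rose, 3 were granzyme B-like genes. Granzymes are serine proteases that cytotoxic T cells and natural killer (NK) cells release into target cells. *Gzmbl2* (granzyme B-like 2, chr15:35413793-35417316, Rnor_6.0) was at 20.9, 25.3 and 22.2 TPM in the Year 1 rats and at 53.7, 84.6 and 48.2 TPM in the Year 2 rats. The lowest Year 2 rat was well above the highest Year 1 rat (log2 fold change 1.48 ± 0.19 SE, edgeR FDR 0.0382). *Gzmbl3* (chr15:36111986-36114752) was at 7.33, 6.81 and 7.45 TPM at Year 1 and at 16.9, 34.2 and 27.5 TPM at Year 2, again without overlap (1.88 ± 0.25, FDR 0.0382).

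*LOC691695* (chr15:36448971-36451720) was at 4.08, 6.64 and 10.6 TPM at Year 1 and at 39.2, 104.4 and 39.8 TPM at Year 2 (log2 fold change 3.10 ± 0.44, edgeR FDR 0.0382). It lies within the interval that the files give for *Gzmb* (chr15:36327721-36472346), so reads of these genes could be split between them. *Gzmb* itself did not pass the test, with 14.0, 6.26 and 12.1 TPM at Year 1 and 8.80, 14.1 and 3.04 TPM at Year 2. *Gzmbl1* (chrX:123015480-123018444) had 0, 1 and 3 counts in the Year 1 rats and 21, 55 and 13 counts in the Year 2 rats. Its pooled ratio was 24.3, with a 95% counting interval from 9.17 to 91.2. The sequences of the granzyme B-like genes were not compared, and how the authors' software divided any shared reads among them is not given in the sources used here.

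Other genes of cytotoxic cells were less uniform. *Cst7* (cystatin F, an inhibitor of the proteases that activate granzymes) rose from 18.6, 16.2 and 20.1 TPM to 34.4, 37.0 and 29.3 TPM (log2 fold change 0.90 ± 0.14, edgeR FDR 0.0382) and was the only 1 of 21 tested NK and cytotoxic lymphocyte genes with an FDR below 0.05. The median log2 fold change of the list was 0.49, and 18 of the 21 were positive. The 3 rats did not overlap between years for 2 of the 21 genes, against 13.4% of all genes tested that were higher without overlap. Perforin, *Prf1*, was at 93.6, 81.1 and 78.4 TPM at Year 1 and at 112, 171 and 87.3 TPM at Year 2 (FDR 0.143). *Nkg7*, a granule protein of the same cells, was at 85.1, 66.4 and 68.4 TPM at Year 1 and at 116, 163 and 71.1 TPM at Year 2 (FDR 0.147). For both genes rat 2 of Year 2 was the highest and rat 3 of Year 2 lay within the range of Year 1. The number of cytotoxic genes with an FDR below 0.05 was 12 without rat 3 of Year 2 (where 501 of all 14401 genes were higher). It was 1 without rat 1 of Year 1 (271 of all 14442) and 0 without rat 1 of Year 2, where no gene of any kind passed.

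Among T cell genes, none of 27 had an FDR below 0.05 (median log2 fold change 0.32, 19 positive), and 10 were higher at Year 2 without overlap of the rats, against the same 13.4%. *Cd8a* (a co-receptor of cytotoxic T cells) was at 53.2, 43.5 and 47.6 TPM at Year 1 and at 87.4, 105 and 55.7 TPM at Year 2 (log2 fold change 0.82 ± 0.21, edgeR FDR 0.0785). *Cd6*, a T cell surface receptor, was at 12.2, 8.86 and 9.78 TPM at Year 1 and between 14.0 and 14.2 TPM at Year 2 (0.48 ± 0.13, FDR 0.089). *Ccl5*, a chemokine made by activated T and NK cells, belongs to the NK and cytotoxic list and not to the T cell list. It was at 430.2, 418 and 395 TPM at Year 1 and at 663, 898 and 442 TPM at Year 2 (0.72 ± 0.21, FDR 0.0951). B cell genes gave a median of -0.09 over 18 genes and plasma cell genes 0.01 over 10, and none had an FDR below 0.05 by edgeR.

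*Ubd* (ubiquitin D, a modifier that marks proteins for the proteasome) rose from 22.1, 19.5 and 21.3 TPM to 42.1, 37.5 and 38.0 TPM (log2 fold change 0.93 ± 0.14, edgeR FDR 0.0382). *RT1-CE4*, a class I histocompatibility gene of the multigene RT1 family, rose from between 66.8 and 69.3 TPM to between 84.3 and 103 TPM (0.47 ± 0.08, FDR 0.0445). *Slfn13*, *Ifi27l2b* and *Zc3h12d*, which were picked out after their values were seen, had log2 fold changes of 0.79, 0.88 and 0.71. Of the 36 genes on the interferon-stimulated list, none had an FDR below 0.05, 31 were positive, and 8 were higher without overlap (13.4% of all genes tested were), with a median of 0.20. *Psmb8*, an immunoproteasome subunit, was at 163, 137 and 138 TPM at Year 1 and at 180.3, 189 and 181 TPM at Year 2 (FDR 0.0753).

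Haemoglobin transcripts were measured as a sign of blood in the tissue. Their summed level was 24168, 18338 and 22798 TPM in the Year 1 rats and 43642, 36875 and 29399.8 TPM in the Year 2 rats, so each Year 2 rat was above each Year 1 rat. Within Year 2, haemoglobin was highest in rat 1 and *Prf1*, *Nkg7*, *Cd8a* and *Ccl5* in rat 2, and all were lowest in rat 3. Within Year 1, haemoglobin and these genes were all highest in rat 1. Cytotoxic genes that passed the test were ordered otherwise there. *Gzmbl2* was highest in rat 2 of Year 1 (25.3 TPM), and *Gzmbl3* and *Cst7* in rat 3 (7.45 and 20.1 TPM). At Year 2, *Gzmbl2* and *Cst7* were also highest in rat 2 and lowest in rat 3, while *Gzmbl3* was lowest in rat 1 (16.9 TPM). All 12 tested genes of the red cell list were positive and 9 were higher without overlap (13.4% of all genes), with a median log2 fold change of 0.61, although none had an FDR below 0.05. *Hba-a1*, an alpha globin with close copies in the files, had a log2 fold change of 0.83 ± 0.17 (edgeR FDR 0.0567), and *Alas2*, the haem synthesis enzyme of red cell precursors, 0.55 ± 0.16 (FDR 0.095). The part of blood left in the tissue in the differences of lymphocyte genes was not tested.

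Chaperone genes were among those that fell. Chaperones fold new proteins in the cytosol (*Hspa8*, *Hsp90aa1*, *Dnaja1*) or in the ER (*Hspa5*, also known as BiP, and *Hsp90b1*). Of 25 tested genes on the heat shock and ER stress list, 4 fell and 1 rose, against 0.639% and 0.281% of all genes. Of the 25, 18 were negative, and 11 were lower without overlap of the rats, against 14.5% of all genes tested. The median log2 fold change was -0.18. Promoter sequences are shown for 3 of the 4 genes that fell on this list. The sequences were chosen because they hold the DNA motif of the stress pathway that each gene is known to respond to. They come from RefSeq on build GRCr8, run 5′ to 3′ on the strand of the gene, and carry the motif in capitals.
*Hspa5*, chr3:38452948-38453015, + strand: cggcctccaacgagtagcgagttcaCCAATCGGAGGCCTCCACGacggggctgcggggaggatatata
*Hsp90b1*, chr7:23012322-23012494, - strand: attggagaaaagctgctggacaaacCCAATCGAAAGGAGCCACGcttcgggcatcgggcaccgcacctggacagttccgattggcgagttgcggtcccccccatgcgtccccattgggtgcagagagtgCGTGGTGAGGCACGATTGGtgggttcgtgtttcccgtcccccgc
*Hspa8*, chr8:50080276-50080496, + strand: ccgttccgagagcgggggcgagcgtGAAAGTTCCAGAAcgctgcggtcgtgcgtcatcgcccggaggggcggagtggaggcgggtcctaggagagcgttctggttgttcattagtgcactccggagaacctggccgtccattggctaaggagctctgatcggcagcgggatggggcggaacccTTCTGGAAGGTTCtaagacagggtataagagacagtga

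In the first 2 sequences the capitals mark the ER stress element, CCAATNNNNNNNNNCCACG on either strand, which occurred once before *Hspa5* and 2 times before *Hsp90b1*. It was found in 22 of 33469 rat promoters of 300 bases (0.0657%) and in 4 of the 23 list members with a promoter sequence. Promoters were counted by sequence and list members by gene, so the shares are not in the same unit. In the *Hspa8* promoter they mark a heat shock element, GAANNTTCNNGAA on either strand, which occurred 2 times and was found in 267 of the promoters (0.798%), again including 4 of the 23. *Calr* and *Creld2*, which also hold the ER stress element, did not pass the test, with log2 fold changes of -0.15 and -0.01. Nor did the other holders of the heat shock element, *Hspd1* (-0.32, edgeR FDR 0.0578), *Hsph1* (-0.55, FDR 0.0716) and *Hspe1* (0.21, FDR 0.67). The promoter sequences of *Hspd1* and *Hspe1* overlap, on opposite strands, so they are not separate stretches of DNA. *Hsp90aa1*, which fell, was not among the list members with a match to either motif. A match of letters is a description of the sequence and not a measurement of binding, and its part in the fall was not tested.

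*Hspa5* (chr3:13838304-13842762, Rnor_6.0) was at 281, 351 and 315 TPM in the Year 1 rats and at 209, 206 and 211 TPM in the Year 2 rats. The 3 Year 2 rats were almost equal and all below Year 1 (log2 fold change -0.56 ± 0.08, edgeR FDR 0.0382). *Hsp90b1* fell from 323, 397 and 358 TPM to 232, 221 and 247 TPM (-0.59 ± 0.09, FDR 0.0382).

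*Hspa8* (chr8:44990014-44993179), the constitutive cytosolic Hsp70, fell from 247, 323 and 290 TPM to 121, 132 and 193 TPM (log2 fold change -0.92 ± 0.16, edgeR FDR 0.0408). *Hsp90aa1* fell from 448, 515 and 436 TPM to 302, 312 and 341 TPM (-0.52 ± 0.08, FDR 0.0382). Neither gene overlapped between years. *Dnaja1* (a co-chaperone of Hsp70) and *Atf6* (a transcription factor of the ER stress response), which were not on the list and were picked out after their values were seen, fell by 0.53 and 0.40 on the log2 scale. *Trib3*, a pseudokinase gene induced by another branch of the ER stress response, moved the other way, from 12.5, 11.0 and 12.3 TPM to 21.7, 20.2 and 19.1 TPM (0.80 ± 0.12, FDR 0.0382).

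**Figure D2:**
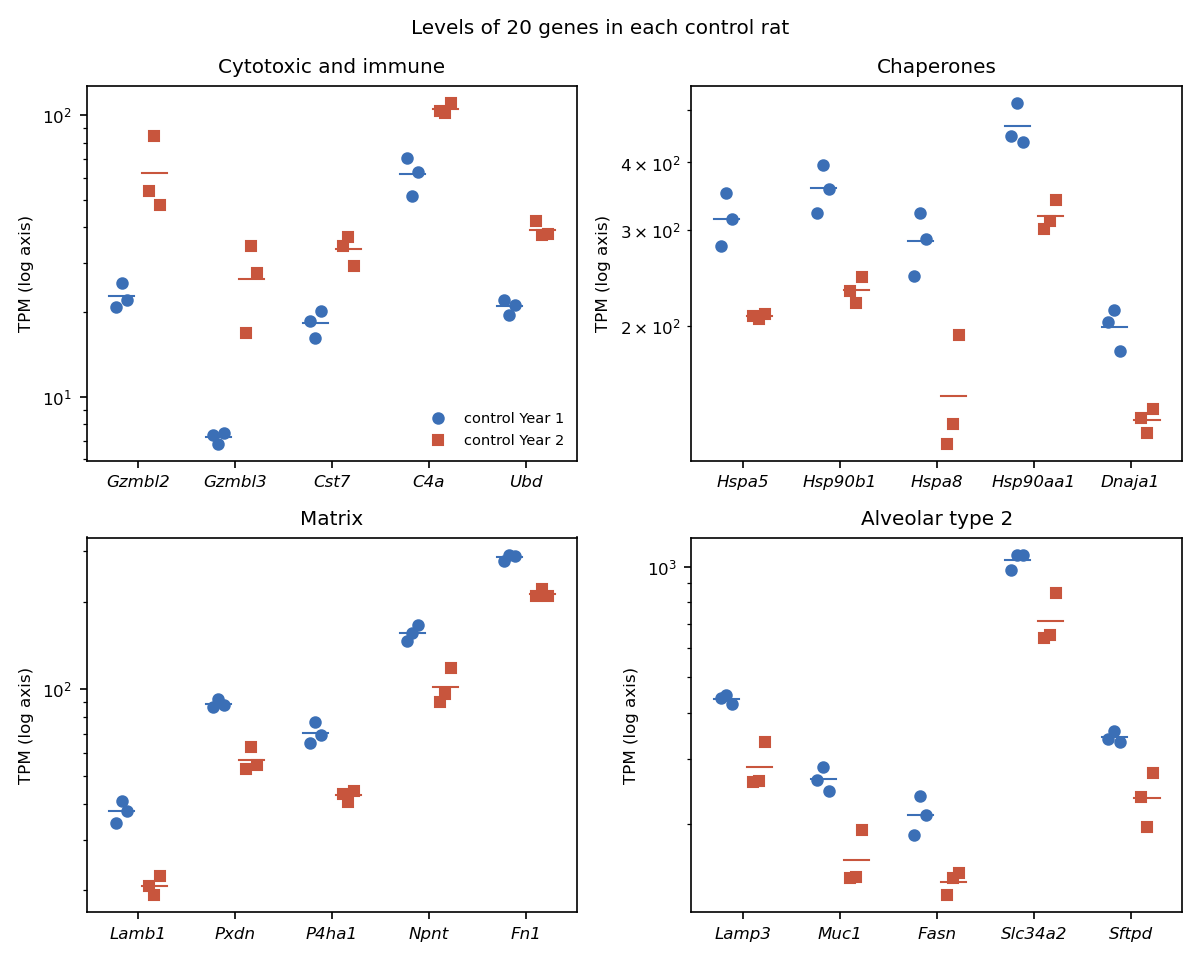
Level of 20 genes in TPM (log axis) in each control rat at Year 1 (blue circles) and Year 2 (red squares), with a line at the mean of the 3 rats. Of the genes shown, the cytotoxic and immune genes were higher at Year 2 and the others lower, and the rats of the 2 years did not overlap for any gene shown, although *Slc34a2* (FDR 0.0555) and *Sftpd* (FDR 0.0639) did not pass the test.

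*Lamb1* (laminin beta 1, a chain of the laminin network, chr6:50528823-50596079) fell from 34.3, 40.8 and 37.8 TPM to 20.7, 19.2 and 22.4 TPM, close to a 1.77-fold difference without overlap (log2 fold change -0.83 ± 0.08, edgeR FDR 0.0173). *Pxdn* (peroxidasin, which cross-links type IV collagen) fell from 86.3, 92.6 and 87.8 TPM to 52.7, 62.7 and 54.5 TPM (-0.62 ± 0.07, FDR 0.0337). *Lama2*, *Lamc1* and *Nid1*, further chains and linkers of the same network that were picked out after their values were seen, had log2 fold changes of -0.71, -0.59 and -0.43.

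Of 32 collagen and elastic fibre genes tested, 2 fell (0.639% of all genes did), none rose, and 15 were lower without overlap (14.5% of all genes), with a median log2 fold change of -0.27. Both genes that fell encode enzymes. *P4ha1* (prolyl 4-hydroxylase, which stabilizes the collagen helix) went from 64.7, 76.9 and 69.3 TPM to 43.3, 40.5 and 44.2 TPM (-0.69 ± 0.08, edgeR FDR 0.0337). *Loxl2* (a lysyl oxidase that cross-links collagen) went from 11.8, 16.2 and 14.3 TPM to 7.79, 8.75 and 8.46 TPM (-0.73 ± 0.13, FDR 0.0492). No collagen chain passed the test, and their log2 fold changes ran from -0.64 for *Col14a1* to 0.07 for *Col16a1*. *Col4a2* was at 142, 143 and 142 TPM at Year 1 and at 99.4, 119 and 97.0 TPM at Year 2 (FDR 0.0563). *Col1a1* was at 149.6, 158 and 131 TPM at Year 1 and at 105, 108 and 122 TPM at Year 2 (FDR 0.0748).

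Of 23 matricellular and fibrosis genes, 2 fell and 9 were lower without overlap, against 0.639% and 14.5% of all genes. *Postn* (periostin, a matrix protein of fibroblasts) went from 318, 290.1 and 292 TPM to 202, 226 and 213 TPM (log2 fold change -0.46 ± 0.07, edgeR FDR 0.0382). *Fn1* (fibronectin) went from 278, 293 and 290.01 TPM to 209.7, 223 and 209.5 TPM (-0.39 ± 0.07, FDR 0.0433). Among 22 fibroblast genes, *Npnt* (nephronectin, a ligand of integrin in the basement membrane) and *Cd34* fell, by 0.60 and 0.37 on the log2 scale. Among 21 smooth muscle and pericyte genes, *Ntn4*, *Hhip* and *Cspg4* fell, by 0.50, 0.68 and 0.64. No member of these 3 lists rose. Lower without overlap were 9 of the fibroblast genes and 9 of the smooth muscle and pericyte genes, against the same 14.5%.

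The difference between years varied with transcript length. Across the 14250 genes, which are not independent replicates, the log2 fold change had a Spearman rho of -0.24 with relative transcript length, and its median was 0.11 in the 2850 shortest genes and -0.08 in the 2850 longest. Rat 1 of Year 2 deviated most, with a rho of -0.34 between its levels and length. With length-adjusted offsets, an alternative chosen after seeing the data, 158 genes had an FDR below 0.05, including 121 of the 131. The matricellular list then had 2 genes lower and the collagen list 2. Their medians were closer to that of all genes, at -0.17 and -0.19, against -0.23 and -0.27 without the adjustment. The chaperone list had 5 lower and 1 higher, with a median of -0.19 against -0.18.

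**Figure D3:**
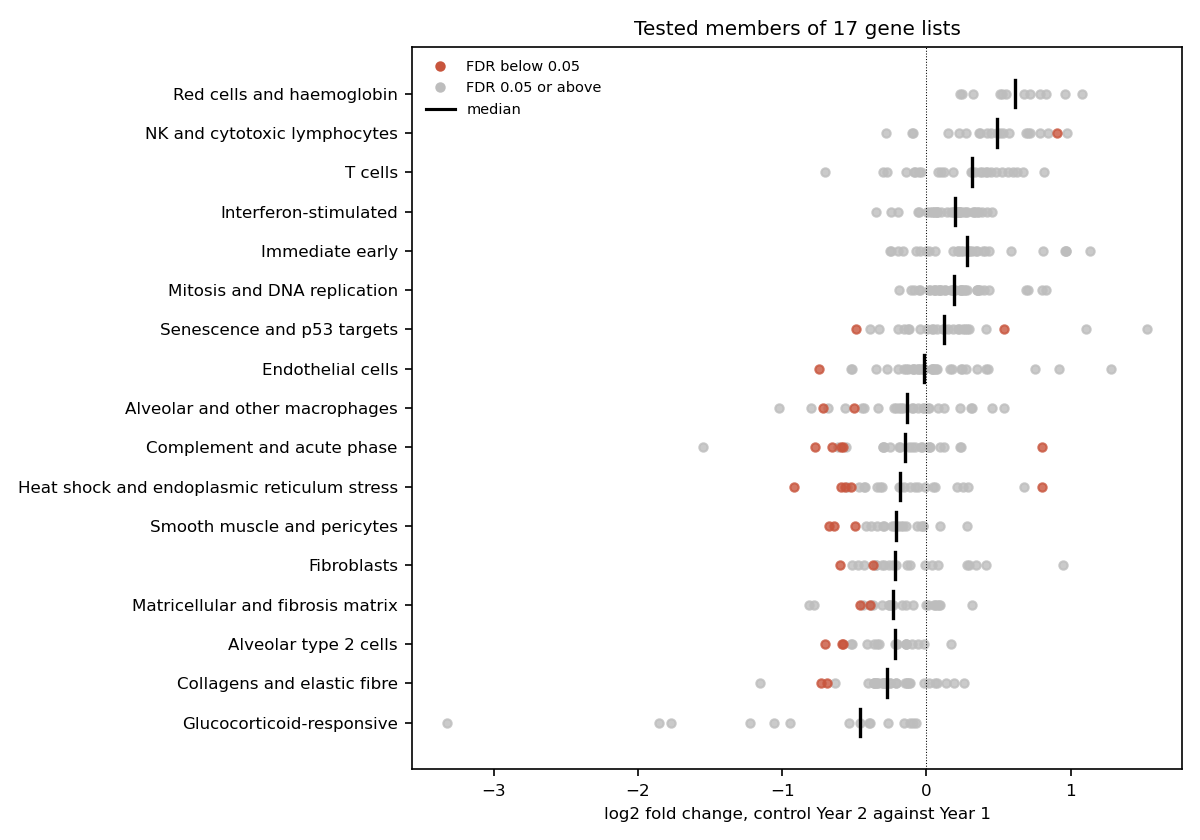
Log2 fold change of control Year 2 against Year 1 (horizontal axis) for each tested member of 17 gene lists, 1 point per gene, with genes that passed an FDR below 0.05 in red and the median of the list as a black line. Among the lists shown, medians ran from 0.61 for the red cell genes to -0.46 for the glucocorticoid-responsive genes. Further lists were examined but are not drawn, such as skeletal muscle (median 0.34), plasma cells (0.01) and club and mucous cells (-0.28).

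Of 19 AT2 genes tested, 18 were negative, 14 were lower without overlap (14.5% of all genes) and 3 fell (0.639% of all genes), with a median log2 fold change of -0.22. *Lamp3* (a membrane protein of the lamellar bodies that store surfactant, chr11:84972132-85000681) went from 438, 449 and 422 TPM to 259, 261 and 334 TPM (-0.59 ± 0.10, edgeR FDR 0.0382). *Muc1* (a membrane mucin) went from 263, 285 and 245 TPM to 142, 143 and 192 TPM (-0.71 ± 0.11, FDR 0.0382). In both, rat 3 of Year 2 was the nearest to Year 1.

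*Fasn* (fatty acid synthase) went from 186, 238 and 211 TPM to 128, 142 and 146 TPM (log2 fold change -0.58 ± 0.09, edgeR FDR 0.0382). Its mean at Year 0.5 was 146 ± 19.1 TPM (SD, n = 3), close to the level at Year 2. *Elovl5*, *Gpam* and *Sptlc2*, other enzymes of fatty acid elongation, glycerolipid and sphingolipid synthesis, which were picked out after their values were seen, had log2 fold changes of -0.39, -0.43 and -0.40. The surfactant proteins did not pass the test. *Sftpd* was at 339, 357 and 333 TPM at Year 1 and at 236, 196 and 274 TPM at Year 2 (FDR 0.0639), and *Sftpb* had a log2 fold change of -0.34 ± 0.09 (FDR 0.0785). *Nkx2-1*, the transcription factor that defines the lineage, had the only positive value, 0.17 ± 0.08 (FDR 0.228). The number of AT2 genes that fell was 9 without rat 3 of Year 2 (where 603 of all 14401 genes were lower). It was 5 without rat 1 of Year 1 (488 of all 14442) and 0 without rat 1 of Year 2, where no gene of any kind passed.

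In the other epithelial lists fewer genes passed. *Pigr* (the receptor that carries IgA across the airway epithelium) was the only 1 of 14 club and mucous cell genes with an FDR below 0.05, going from 718, 797 and 743 TPM to 392, 386 and 559 TPM (log2 fold change -0.73 ± 0.13, edgeR FDR 0.0455). *Scgb1a1*, the main secretory protein of club cells, had overlapping rats and a log2 fold change of -0.38 ± 0.18 (FDR 0.245). No gene of alveolar type 1 or ciliated cells had an FDR below 0.05, with medians of -0.13 over 20 genes and -0.09 over 24.

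Complement and acute phase genes split by member. Of 26 tested, 4 fell and 1 rose, against 0.639% and 0.281% of all genes. Without overlap of the rats, 9 were lower and 2 higher, against 14.5% and 13.4% of all genes. *C3*, the central complement component, went from 126, 136 and 145 TPM to 72.1, 65.8 and 95.5 TPM (log2 fold change -0.77 ± 0.13, edgeR FDR 0.0382), and *C5* fell by 0.60. *Fgg* (fibrinogen gamma chain) went from 112, 116 and 119 TPM to 78.2, 74.0 and 75.5 TPM (-0.58 ± 0.07, FDR 0.0337), and *Cp* (ceruloplasmin, a copper-carrying ferroxidase) fell by 0.66. *C4a*, of the classical pathway, went the other way, from 70.8, 51.9 and 62.8 TPM to 103.7, 102.3 and 110.6 TPM (0.80 ± 0.11, FDR 0.0382). *Cxcl3*, a neutrophil chemokine that was picked out after its values were seen, went from 468, 487 and 474 TPM to 194, 222 and 323 TPM (-0.93 ± 0.15, FDR 0.0382).

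Of 28 macrophage genes, *Msr1* (a scavenger receptor) and *Lpl* (lipoprotein lipase) fell, by 0.72 and 0.50 on the log2 scale, where 0.639% of all genes fell. None rose, and 9 of the 28 were lower without overlap, against 14.5% of all genes. *Cd163*, the haemoglobin scavenger receptor, was at 5.79, 10.7 and 8.90 TPM at Year 1 and at 3.89, 3.96 and 4.43 TPM at Year 2 (log2 fold change -1.02 ± 0.20, edgeR FDR 0.0528). Its Year 0.5 mean was 4.36 ± 1.93 TPM (SD, n = 3), so the Year 1 rats had the higher level of the 3 time points. No neutrophil, mast cell or class II presentation gene had an FDR below 0.05.

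*Ednrb* (the endothelin B receptor, which clears endothelin in the lung, chr15:88006977-88036354) fell. It went from 147, 159 and 149 TPM to 78.8, 92.5 and 94.9 TPM, and shared the lowest FDR of all genes with 2 others (log2 fold change -0.74 ± 0.07, edgeR FDR 0.0173). The Year 0.5 rats had 168 ± 15.1 TPM (SD, n = 3). It was the only 1 of 35 endothelial genes with an FDR below 0.05, and their median was -0.02. Both subunits of the nitric oxide receptor, *Gucy1a1* and *Gucy1b1*, and *Pde5a*, the enzyme that degrades its product cyclic GMP, were picked out after their values were seen. Their log2 fold changes were -0.41, -0.35 and -0.51. *Angpt1* (angiopoietin 1, a ligand that stabilizes vessels) and *Met* (the receptor of hepatocyte growth factor) fell by 0.59 and 0.68.

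The DEGs that fell most were of mixed function. *Ly6i*, a surface protein of the Ly6 family (chr7:116419578-116425003), was the most abundant, at 366, 273 and 316 TPM at Year 1 and at 141, 151 and 140.02 TPM at Year 2 (log2 fold change -1.12 ± 0.11, edgeR FDR 0.0173). *Kcne5*, a regulatory subunit of potassium channels, had 17, 33 and 48 counts at Year 1 and 5, 2 and 1 counts at Year 2 (-3.40 ± 0.55, FDR 0.0382). *Phex* (an endopeptidase of phosphate balance) and *Clstn2* (calsyntenin 2) had log2 fold changes of -1.02 and -1.04. *LOC100909700* and *LOC108348108*, for which the files give no further name, had -1.94 and -1.62.

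The remaining DEGs that rose were mostly low. *Calb2* (calretinin, a calcium-binding protein that also marks mesothelium) had 1, 1 and 0 counts at Year 1 and 16, 14 and 18 counts at Year 2, a ratio of 26.2 with a 95% counting interval from 6.88 to 223. The mesothelial list had a median log2 fold change of 0.06 over 14 genes. *Myh4*, a myosin of fast skeletal muscle, was below 1 TPM in every rat (log2 fold change 1.59 ± 0.28, edgeR FDR 0.0467). *Atcay*, *Sbk1*, *Begain* and *Arl5c* had log2 fold changes of 2.64, 1.31, 1.30 and 1.17, without overlap of the rats. The unnamed genes *AABR07061036.1* and *AABR07051562.1* differed 11.4-fold and 2.83-fold. The last of these, at 22.4 to 43.0 TPM at Year 1 and 76.5 to 99.0 TPM at Year 2, had a Year 0.5 mean of 57.1 ± 19.5 TPM (SD, n = 3), between the other 2 time points.

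*Foxo3* (a transcription factor of stress resistance and cell cycle arrest, chr20:46428124-46519144) was a DEG with uneven levels among the Year 1 rats. It was at 40.4, 78.8 and 73.8 TPM at Year 1 and at 25.6, 29.1 and 30.7 TPM at Year 2 (log2 fold change -1.15 ± 0.20, edgeR FDR 0.0455). The Year 0.5 rats, at 33.3, 33.5 and 51.0 TPM (39.3 ± 10.1, SD, n = 3), were near rat 1 of Year 1 and above every Year 2 rat.

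The same uneven pattern was found in genes that respond to glucocorticoids, the adrenal stress hormones. All 15 tested genes of this list were negative and 7 were lower without overlap, against 14.5% of all genes (median log2 fold change -0.46), but none had an FDR below 0.05 by edgeR. Without rat 1 of Year 1, 9 did, where 488 of all 14442 genes were lower. Without rat 3 of Year 2, 4 did, where 603 of all 14401 genes were lower. Without rat 1 of Year 2, no gene of any list did. *Zbtb16* (a zinc finger repressor) was at 7.65, 84.9 and 105 TPM at Year 1 and at 6.72, 6.43 and 6.08 TPM at Year 2 (-3.32 ± 0.74, FDR 0.0633). *Fkbp5* (a co-chaperone of the glucocorticoid receptor) was at 25.3, 140.1 and 129 TPM at Year 1 and at 25.8, 27.6 and 25.9 TPM at Year 2 (-1.86 ± 0.48, FDR 0.0823). Both genes were picked out after their values were seen.

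In these genes rats 2 and 3 of Year 1 stood far above the others, and rat 1 of Year 1 lay within the range of the Year 0.5 rats. *Tsc22d3* (the glucocorticoid-induced leucine zipper protein) was at 356, 720.1 and 637 TPM at Year 1 and at 261, 249 and 295 TPM at Year 2 (log2 fold change -1.06 ± 0.21, edgeR FDR 0.053). *Klf9*, another direct target of the receptor, was at 79.3, 191 and 179 TPM at Year 1 and at 55.3, 64.5 and 68.3 TPM at Year 2 (FDR 0.0593). The Year 0.5 means were 9.06 ± 4.22 TPM for *Zbtb16*, 25.9 ± 11.6 for *Fkbp5*, 318 ± 124 for *Tsc22d3* and 94.5 ± 27.8 for *Klf9* (SD, n = 3). Among the MWCNT-treated rats, *Zbtb16* was at 6.33, 4.34 and 54.4 TPM at Year 1, so that 1 rat was high there too, and at 17.9, 4.95 and 11.0 TPM at Year 2. The part of this pattern in the other differences from Year 1 was not tested.

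**Figure D4:**
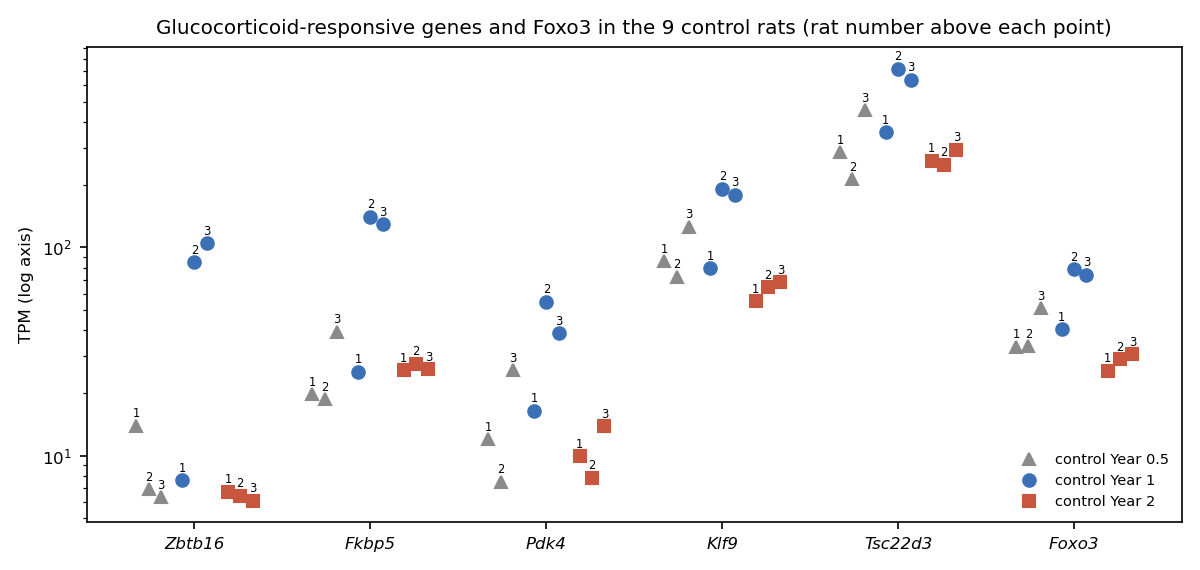
Level in TPM (log axis) of 5 glucocorticoid-responsive genes and *Foxo3* in the 9 control rats, at Year 0.5 (grey triangles), Year 1 (blue circles) and Year 2 (red squares), with the number of the rat above each point. Rats 2 and 3 of Year 1 were above all other control rats for each gene, while rat 1 of Year 1 was near the Year 0.5 rats.

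Few genes passed in lists often followed with age. Of 26 senescence and p53 genes, 1 rose and 1 fell, against 0.281% and 0.639% of all genes. *Bax* (a promoter of apoptosis) rose from 52.3, 45.9 and 50.3 TPM to 71.2, 74.1 and 65.9 TPM (log2 fold change 0.54 ± 0.10, edgeR FDR 0.0471). *Igfbp3* (an insulin-like growth factor binding protein) fell by 0.49. The largest fold changes of the list did not pass, and were picked out after their values were seen: *Cdkn2a* (1.53, FDR 0.126) and *Ccl2* (1.10, FDR 0.104). *Cdkn2b* (the cell cycle inhibitor p15) had a log2 fold change of 0.30 ± 0.07 (FDR 0.0765). No gene of mitosis and DNA replication had an FDR below 0.05, with a median of 0.19 over 39 genes, 34 of them positive. Respiratory chain genes had a median of 0.05 over 31 and clock genes 0.02 over 19, with none passing. Cardiac muscle genes differed more between rats than between years. *Ckm*, a muscle creatine kinase, was at 7.53, 17.8 and 13.1 TPM at Year 1 and at 0.66, 6.84 and 19.7 TPM at Year 2.

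The MWCNT-treated rats gave the same interval in separate animals. Of the 131 genes, 128 were also tested there, and 105 (82.0%) had the same sign, against 60.5% of the 13953 genes tested in both. Of the 128, 15 had an FDR below 0.05 in the treated rats, all with the same sign, where 2.98% of all genes passed. *Slfn13* (log2 fold change 0.79 in control and 0.85 in treated rats), *Scube2* (-0.83 and -1.07), *Postn* (-0.46 and -0.51) and *Cxcl3* (-0.93 and -0.61) were among them. The fold changes were smaller in the treated rats, with medians of 0.27 for the genes higher in control lungs and -0.22 for those lower, against 0.80 and -0.58 in the control rats, on whose values the genes were chosen.

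The lists are given side by side, and a difference between control and treated rats was not tested for a list as a whole. The AT2 list had a median of -0.16 in the treated rats, and 14 of 19 genes were negative. *Gzmbl3* had a log2 fold change of 1.20 there (edgeR FDR 0.21) and *Gzmbl2* 0.69 (FDR 0.399). The NK and cytotoxic list had a median of 0.02 in the treated rats, against 0.49 in control rats, with 10 of 20 genes positive. The T cell list had -0.21 against 0.32, with 22 of 26 genes negative. For the interferon-stimulated list it was -0.19 against 0.20, with 30 of 36 genes negative. The chaperones *Hspa5* and *Hsp90b1* had -0.05 and -0.03, and the matrix lists had medians of 0.06 (collagens) and 0.08 (matricellular). The red cell list had a median of -0.03 and the glucocorticoid list 0.01. A test of the difference itself, the interaction of treatment and time, gave 38 of 14730 genes (0.258%) at an FDR below 0.05, of which 3 were among the 131: *Lamb1*, *Lpl* and *Trib3*.

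**Figure D5:**
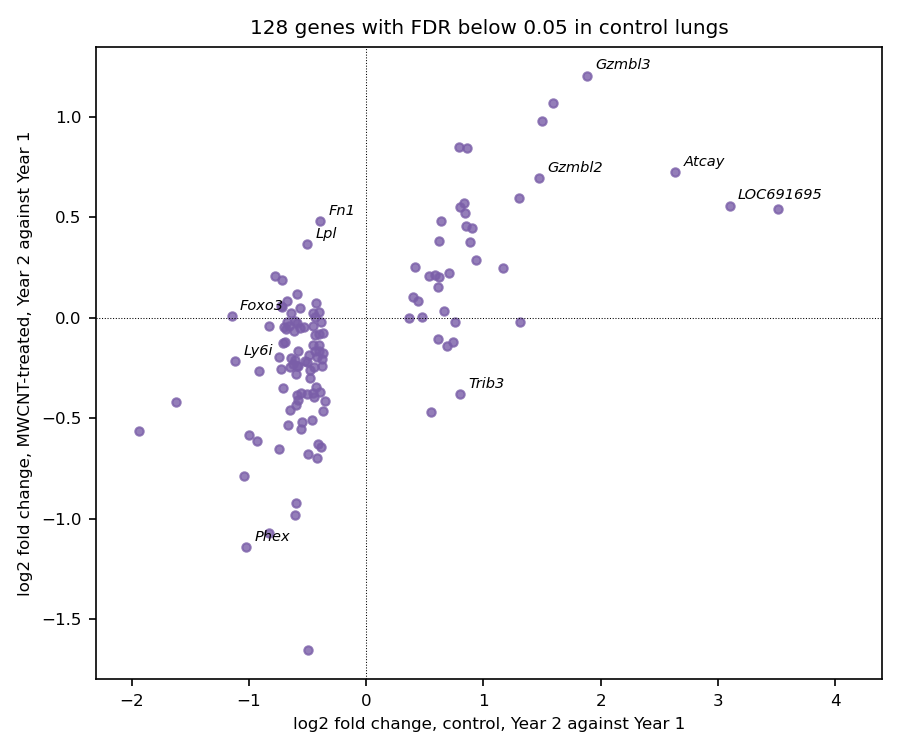
Log2 fold change of Year 2 against Year 1 in control rats (horizontal axis) and in MWCNT-treated rats (vertical axis) for the 128 genes that passed an FDR below 0.05 in control lungs and were tested in both. Of these points 82.0% lay in the quadrants of equal sign, and most lay closer to 0 on the vertical axis than on the horizontal one.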

How the data were processed

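RNA-seq counts and TPM of rat lungs were used as the authors deposited them. Per the study's methods, the authors mapped reads with CLC Genomics Workbench 22.0.2 and deposited whole-number counts per gene, without normalization. The authors' TPM values were computed by the same software from these reads and are scaled for transcript length. Per the labels the build was Rnor_6.0. How reads that map to several places were counted is not given in the sources used here. The RPKM and CPM columns and the authors' own comparison columns (fold changes and p-values) were not used.

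Counts of the 6 rats were joined by identifier and tested in R 4.3.3 with edgeR 4.0.16 (filterByExpr with min.count 10 and min.total.count 15, TMM, quasi-likelihood test, Benjamini-Hochberg FDR). SEs were derived from the F statistic. The steps were tested on simulated data. Counts, which ranged from 13297643 to 17868851 per rat, set the precision of low genes, and counting intervals cover counting error only. Named genes were the DEGs without overlap (filled to 15 a direction by lowest p), up to 6 genes of each list with an FDR below 0.05 and the 3 with the lowest p, and abundant genes. Besides those marked in the text, *Alas2*, *Col1a1*, *Col4a2*, *Gzmb*, *Mfap4*, *Nkg7*, *Nkx2-1*, *Prf1*, *RT1-CE4*, *Sftpb*, *Sftpd* and *Slc34a2* were named after their values were seen. The comparison and the gene lists were chosen with earlier results of these data known. Relative transcript length was taken from counts over TPM. Alternatives used other scalings, filters, models, DESeq2 1.42.0 and limma 3.58.1.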

Additional observations from a re-analysis of the deposited data

Results flagged for a closer look

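The change from Year 1 to Year 2 differed between control and MWCNT-treated rats (interaction of treatment and time, edgeR, FDR below 0.05) for 38 genes. Opposite signs in the 2 groups were found for 30 of these, which choosing genes by that difference favours. Of all genes tested in both groups, 60.5% had the same sign. Some control changes were small, such as 0.04 for *Npw* and -0.02 for *Hpgd* (log2), and 3 of the 38 passed in the control rats alone. The 38 genes included 5 of the named genes. *Trib3* had an interaction of 1.19 ± 0.16 on the log2 scale (control minus treated, FDR 0.018), *Lpl* -0.86 ± 0.15 (FDR 0.0376), *Lamb1* -0.77 ± 0.13 (FDR 0.0376), *Col1a1* -0.93 ± 0.15 (FDR 0.0354) and *Cyp4b1* 0.68 ± 0.11 (FDR 0.0354). *Lpl* fell in the control rats and had a log2 fold change of 0.37 in the treated rats (FDR 0.152). *Cyp4b1*, a cytochrome P450 of the lung, was at 781, 836 and 771 TPM in the control rats of Year 1 and at 659, 695 and 674 TPM at Year 2, with a log2 fold change of -0.21 (FDR 0.12) against -0.88 in the treated rats. Without single control rats the count ran from 0 to 265. It was 147 without rat 1 of Year 1, 265 without rat 3 of Year 2, 3 without rat 1 of Year 2, and 0 without each of the other 3.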

How the results depend on the processing

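The counts depended on the model and on single rats, and the cause was not tested. DEGs numbered 19 (12 higher, 7 lower) as reported, 49 (25, 24) with DESeq2 (1085 genes at any fold), 102 (51, 51) with edgeR's likelihood ratio test (920), 49 (25, 24) without a filter on low counts (292) and 38 (19, 19) with at least 10 counts in every rat (305). They numbered 9 (6, 3) with limma on log2(TPM + 1) (36 genes at any fold), 10 (6, 4) on log2(TPM + 0.1) (36), 43 (22, 21) in a model of the 9 control rats (520) and 74 (37, 37) in a model of all 18 rats (1177). Scaling by library size gave 3 lower DEGs and 13 in all, and turned the split at any fold from 40 higher and 91 lower to 42 and 48. At an FDR below 0.01 there were 0 DEGs (0 and 0). With 1 rat left out, DEGs ranged from 0 to 125 (0 to 75 higher, 0 to 59 lower), genes at any fold from 0 to 1104, and interaction genes from 0 to 265. The interaction count was 89 with at least 10 counts in every rat and 71 in the model of all 18 rats. With the replicate block there were 10 DEGs (4 higher, 6 lower), 45 genes at any fold and 6 interaction genes. Deviations from the group mean in same-numbered rats had correlations of 0.222, -0.0472 and 0.164, and those in differently numbered rats ran from -0.266 to 0.144. With 3 rats in a group, these values cannot show whether the numbers stand for a shared factor. Of 3522 values for named genes under all alternatives, 3517 kept their direction. The exceptions did not pass the test as reported. With 1 rat left out, *Ckm* ranged from -1.74 to 0.049, *Casq2* from -1.64 to 0.075, *Ager* from -0.032 to 0.16 and *Gzmb* from -0.80 to 0.12 on the log2 scale. With length-adjusted offsets *Mt-nd3* had -0.034. The direction of the 131 genes is fixed in part by their choice, since their rats did not overlap. Genes with low counts were limited by depth.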

Other observations

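*Mfap4* (a microfibril-associated glycoprotein of elastic fibres), one of the most abundant transcripts, was at 2356, 1891 and 2825 TPM in the Year 1 rats and at 280, 293 and 2590 TPM in the Year 2 rats. Rats 1 and 2 of Year 2 were thus far below every other control rat, and rat 3 was not. The Year 0.5 rats had 2569.96 ± 342 TPM (SD, n = 3). The difference between years did not pass the test (log2 fold change -1.15 ± 0.73, edgeR FDR 0.368).

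Immediate early genes, which respond within minutes to many stimuli, did not pass the test. Of 30 tested, 23 were positive at Year 2 and 6 were higher without overlap (13.4% of all genes), with a median log2 fold change of 0.28. *Fosb* was at 4.59, 2.47 and 3.26 TPM at Year 1 and at 5.73, 8.42 and 8.10 TPM at Year 2 (edgeR FDR 0.056), and *Nr4a1* at 70.1, 49.2 and 37.6 TPM and at 100.4, 117 and 82.8 TPM (FDR 0.0626). The Year 0.5 means, 7.94 ± 5.40 and 129.5 ± 80.5 TPM (SD, n = 3), were as high as those of Year 2.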
